A study of Mus musculus with 6 samples.

Results

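Mybpc1, Esyt3, Chrnd and Casq2 are 4 genes best known from muscle whose levels were higher in DISC1-Δ3 than in wildtype oligodendroglia progenitor cells (OPCs). They were picked by name, for that difference, from a table of 18211 genes, so their own levels are given as a description without a test. Tests were kept for other genes, namely their family members, the genes of related muscle structures and their neighbours on the chromosome. The lists and rules for these were chosen with earlier results of these data known.

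RNA was sequenced in 6 libraries, 3 per genotype, from cells that antibody against Pdgfrα had captured by immunopanning from cerebral hemispheres at postnatal day 7 (P7). Wildtype mice were C57BL/6 without CreERT. DISC1-Δ3 mice carried the NG2-CreERTM transgene and 1 floxed copy of DISC1 exon 3 (NG2-CreERTM:DISC1 exon3 fl/+), so the deletion was restricted to cells in which the NG2 (Cspg4) promoter is active and spared the other copy. Both genotypes received tamoxifen by gavage from P4 to P7, and the labels do not say how many mice went into a library. Pericytes also use the NG2 promoter, and the transgene itself was absent from the wildtype group.

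Mybpc1 encodes slow-type myosin-binding protein C, which sits on the thick filaments of the sarcomere. Esyt3 encodes extended synaptotagmin 3, a membrane tether between the endoplasmic reticulum and the plasma membrane that is not itself a contractile protein. Chrnd encodes the delta subunit of the muscle-type nicotinic acetylcholine receptor, which is assembled from alpha, beta, delta and gamma or epsilon subunits at the neuromuscular junction, and Casq2 encodes cardiac-type calsequestrin, which stores calcium inside the sarcoplasmic reticulum.

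Libraries held 13716619 to 16417219 reads assigned to genes. DISC1-Δ3 replicate 3 stood apart from the other DISC1-Δ3 libraries, since chi-square divided by its degrees of freedom came to 4.99 and 5.39 against them and to 1.80 to 2.97 for the other pairs of 1 genotype. Disc1 fell by 0.45 on the log2 scale (SE 0.088, adjusted p = 0.000528 in edgeR, as for all adjusted p below) and Cspg4 rose by 0.46 (adjusted p = 1.15e-05). The 10 microglia markers had far higher levels than the 10 OPC markers in every library, with summed RPKM (reads per kilobase of transcript, scaled to library size) of 12014 to 12231 against 553.9 to 575.2 in wildtype. In DISC1-Δ3 the sums were 8474 to 8792 for microglia and 716 to 744.6 for OPCs. RNA of cells other than OPCs was thus present in all 6 libraries. In such bulk RNA, more cells of a type and more RNA per cell cannot be told apart.

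The stretch around the transcription start of 3 of the genes, 250 bases before to 50 bases after it, is shown from RefSeq (GRCm38.p6) because these genes moved from near 0 or low to higher levels and their starts can be read for muscle and Wnt-related motifs. The windows are chr10:88605103-88605402 on the minus strand for Mybpc1, chr9:99358481-99358780 on the minus strand for Esyt3 and chr3:102086165-102086464 on the plus strand for Casq2. Each is set on 1 annotated start, which need not be the gene's outermost. The Esyt3 window lies wholly within the gene's bounds (chr9:99309963-99360159). Capitals mark the E-box CAGCTG, which reads the same on both strands and is a site type bound by myogenic factors.
Mybpc1: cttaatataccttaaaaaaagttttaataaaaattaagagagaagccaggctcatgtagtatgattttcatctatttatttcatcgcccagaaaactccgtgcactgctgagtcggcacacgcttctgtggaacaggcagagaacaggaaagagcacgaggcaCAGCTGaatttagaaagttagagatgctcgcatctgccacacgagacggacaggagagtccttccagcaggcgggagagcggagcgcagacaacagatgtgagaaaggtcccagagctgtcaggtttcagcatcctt
Esyt3: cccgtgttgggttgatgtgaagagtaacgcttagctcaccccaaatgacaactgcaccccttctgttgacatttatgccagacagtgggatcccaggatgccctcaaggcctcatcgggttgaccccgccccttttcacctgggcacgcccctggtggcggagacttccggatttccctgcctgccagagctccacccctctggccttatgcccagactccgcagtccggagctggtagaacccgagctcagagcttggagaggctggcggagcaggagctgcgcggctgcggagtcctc
Casq2: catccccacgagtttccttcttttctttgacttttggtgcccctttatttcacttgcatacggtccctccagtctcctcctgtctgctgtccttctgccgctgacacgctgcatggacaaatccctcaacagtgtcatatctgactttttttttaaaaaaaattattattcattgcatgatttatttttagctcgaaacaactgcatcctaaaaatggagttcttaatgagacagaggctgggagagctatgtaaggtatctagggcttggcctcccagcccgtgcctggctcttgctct
The Mybpc1 window held 1 CAGCTG, 87 bases before the start, as did 16.3% of 32851 mouse promoter windows of that length. The Esyt3 and Casq2 windows held none. The TCF/LEF core, searched on both strands as CTTTGAA or as CTTTGAT or else as CTTTGTA or as CTTTGTT, was present in 16.9% of all windows, TATAAA was present in 13.6%, and neither was in these 3 windows. GC content was 46.7% for Mybpc1, 61.7% for Esyt3 and 44.7% for Casq2, against a median of 52.7% over all windows.

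Mybpc1 (gene ID 109272, chr10:88518279-88605229, minus strand) had 7, 2 and 3 reads in the wildtype libraries and 917, 1111 and 1827 reads in the DISC1-Δ3 libraries. Its level was 0.13, 0.03 and 0.05 RPKM in wildtype and 16.42, 17.74 and 28.98 RPKM in DISC1-Δ3. The groups did not overlap, and DISC1-Δ3 replicate 3 was the highest library by a wide margin. The mean level was 0.07 ± 0.0529 RPKM in wildtype and 21.05 ± 6.90 RPKM in DISC1-Δ3 (SD, n = 3 each). The ratio of summed reads, scaled for depth, was 303.4 (95% exact binomial interval 173.5 to 587.6), and the fitted log2 fold change was 8.19 (SE 0.322). Intervals of this kind cover counting error only, not the spread between libraries.

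Esyt3 (gene ID 272636, chr9:99309963-99360159, minus strand) was at 0.17, 0.25 and 0.29 RPKM in wildtype, from 10, 15 and 18 reads. In DISC1-Δ3 it was at 35.96, 38.43 and 40.16 RPKM, from 1912.93, 2313.99 and 2400 reads. It was thus the most abundant of the 4 genes per length in DISC1-Δ3 and the most even between those libraries, with a coefficient of variation of 5.53%. The mean level was 0.237 ± 0.0611 RPKM in wildtype and 38.18 ± 2.11 RPKM in DISC1-Δ3, the ratio of reads was 145.5 (interval 107.9 to 201.3) and the fitted log2 fold change was 7.17 (SE 0.106). Cep70, on the plus strand, overlaps Esyt3, and in libraries that do not keep strand the reads of the overlap cannot be told apart. Cep70 itself was at 1.56 RPKM in wildtype and 1.65 RPKM in DISC1-Δ3 (log2 fold change -0.17, SE 0.205, adjusted p = 0.552).

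Chrnd (gene ID 11447, chr1:87190597-87200070, plus strand) had 0, 0 and 1 reads in wildtype and 140, 177 and 125 reads in DISC1-Δ3. Its level was 0, 0 and 0.02 RPKM in wildtype and 3.48, 3.89 and 2.75 RPKM in DISC1-Δ3. Wildtype was at the limit of detection, as a count of 0 allows up to 3 reads in a library. The ratio of reads was 417.4, with an interval of 74.52 to 16522 that reflects the single wildtype read, and the fitted log2 fold change was 8.26 (SE 0.433). DISC1-Δ3 replicate 3, which was the highest library for Mybpc1, was the lowest DISC1-Δ3 library for Chrnd.

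Casq2 (gene ID 12373, chr3:102086415-102146514, plus strand) was detected in every library and differed far less. It had 25, 21 and 30 reads in wildtype, or 0.77, 0.54 and 0.77 RPKM, and 53, 55 and 63 reads in DISC1-Δ3, or 1.56, 1.44 and 1.65 RPKM. The groups did not overlap, the lowest DISC1-Δ3 level being 1.87 times the highest wildtype level. The mean level was 0.693 ± 0.133 RPKM in wildtype and 1.55 ± 0.105 RPKM in DISC1-Δ3, the ratio of reads was 2.13 (interval 1.61 to 2.82) and the fitted log2 fold change was 1.08 (SE 0.218).

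**Figure D1:**
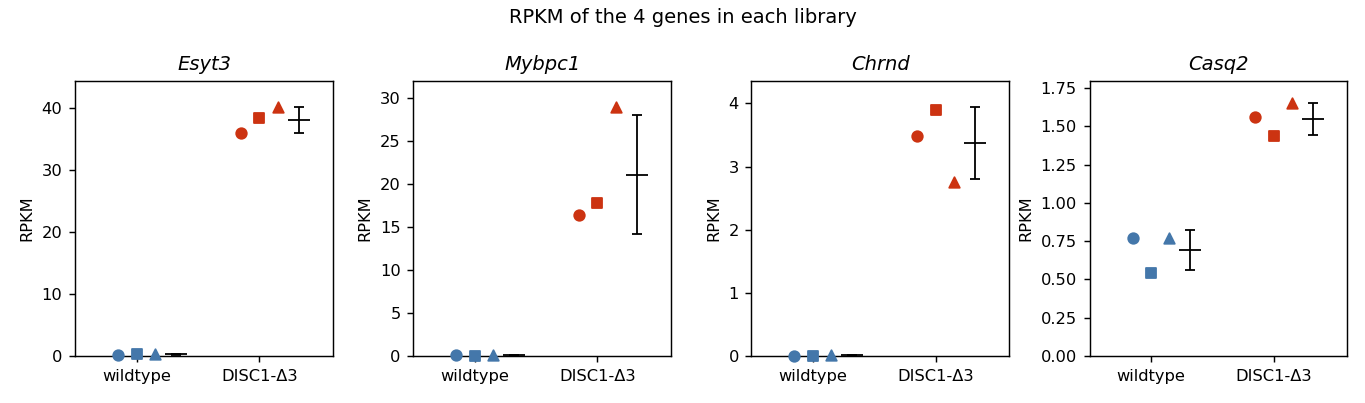
Level in RPKM (y axis, linear from 0, a scale of its own per gene) of Esyt3, Mybpc1, Chrnd and Casq2 in the 3 wildtype (blue) and 3 DISC1-Δ3 (red) libraries; circles, squares and triangles are replicates 1, 2 and 3, and black bars give the mean ± SD. Wildtype points lie at or near 0 except for Casq2, and DISC1-Δ3 replicate 3 is the highest point for Mybpc1 (28.98) and the lowest DISC1-Δ3 point for Chrnd (2.75).

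The order of levels per length changed between the genotypes. In wildtype it ran Casq2, Esyt3, Mybpc1, Chrnd, and in DISC1-Δ3 it ran Esyt3, Mybpc1, Chrnd, Casq2, with no overlap of library values between neighbours in either order. Each of the 4 genes also had every DISC1-Δ3 library above every wildtype library, as did 35.9% of all tested genes. Among all 18211 genes, Esyt3 moved from above 20.7% to above 87.4% of genes in mean RPKM, Mybpc1 from 13.6% to 78.4%, Chrnd from 3.61% to 44.6% and Casq2 from 28.2% to 34.5%. The shift was thus wide for 3 of them and narrow for Casq2. By fitted rise, Chrnd ranked 6, Mybpc1 7, Esyt3 14 and Casq2 339 among the 13792 genes tested. All 4 passed the filter of at least 0.5 RPKM in at least 3 libraries, but Mybpc1, Esyt3 and Chrnd did so through the DISC1-Δ3 libraries alone.

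Replicate 3 of DISC1-Δ3 pulled the genes in opposite directions. Its Mybpc1 level was 1.70 times the mean of the other DISC1-Δ3 libraries, a log2 difference above that of 98.6% of tested genes. Its Chrnd level was 0.746 times that mean, and only 1.88% of tested genes had a lower difference. For Esyt3 the ratio was 1.08 and for Casq2 1.10. Without that library the fitted log2 fold changes were 7.89 for Mybpc1, 7.14 for Esyt3, 8.39 for Chrnd and 1.04 for Casq2, each against all 3 wildtype libraries. Leaving out a wildtype library moved the genes with few wildtype reads further, to 8.92 for Mybpc1 without replicate 1 and to 10.16 for Chrnd without replicate 3, which held its 1 wildtype read. The coefficient of variation of Mybpc1 in DISC1-Δ3, 32.8%, was above that of 96.5% of tested genes, whose median was 6.88%.

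The 4 genes were picked for their rise, so the size of their change cannot be compared with that of their relatives. Shares within a family, given below, rest on the same picked genes. Among 21 family members, 7 passed the filter, 3 were called higher and 1 lower, with a median log2 fold change of 0.18. Over all 13792 tested genes 20.4% were called higher and 19.5% lower, with a median of 0.01. The higher ones were Chrnb1 (below), Chrna4 and Chrnb2, the main subunits of neuronal nicotinic receptors. Chrna4 rose from 3.42 ± 0.211 to 6.08 ± 0.335 RPKM (log2 fold change 0.75, SE 0.091, adjusted p = 2.99e-06). Chrnb2 rose by 0.28 (adjusted p = 0.0352), a call that was lost under DESeq2 and in 4 of the 6 fits that left out a library. Neuron markers moved the same way, 7 of 8 being called higher (summed RPKM 351.1 to 353.1 in wildtype, 420.6 to 443.7 in DISC1-Δ3), and their part in these changes was not tested.

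Within the extended synaptotagmins, Esyt3 replaced Esyt1 as the most abundant member. Esyt1 fell from 21.0 ± 1.20 to 18.7 ± 1.57 RPKM (log2 fold change -0.25, SE 0.067, adjusted p = 0.00599), although the groups overlapped in RPKM and the call was lost in limma on log2 RPKM. Esyt2 was at 4.62 ± 0.306 and 5.66 ± 0.287 RPKM (log2 fold change 0.18, adjusted p = 0.093). The share of Esyt3 in the summed RPKM of the 3 genes was 0.622%, 1% and 1.14% in wildtype against 58.1%, 62.2% and 62.9% in DISC1-Δ3. The family's total was accordingly larger, at 61.8 to 63.9 RPKM in DISC1-Δ3 and 24.9 to 27.3 RPKM in wildtype.

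Within the myosin-binding proteins, Mybpc1 made up 4.76% to 13.3% of the summed RPKM of the 5 family members in wildtype and 96.5% to 98.4% in DISC1-Δ3. Fast-type Mybpc2 and Mybphl had at most 3 reads in every library, rounded to whole reads, and cardiac-type Mybpc3 was at 0.107 and 0.0933 RPKM. Mybph was at 0.633 ± 0.194 RPKM in wildtype and 0.39 ± 0.125 RPKM in DISC1-Δ3 (log2 fold change -0.86, adjusted p = 0.0721). Skeletal-type calsequestrin, Casq1, was at 1.31 ± 0.315 and 1.11 ± 0.0964 RPKM (log2 fold change -0.32, adjusted p = 0.326), so that Casq2 went from 25% to 43.8% of the pair's summed RPKM in wildtype to 56.1% to 61.3% in DISC1-Δ3.

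Of the other subunits of the muscle-type receptor, Chrnb1 alone was called higher in the reported fit, and all were at low levels. Chrnb1, the beta subunit, had 24, 14 and 12 reads in wildtype and 64, 79 and 80 reads in DISC1-Δ3, which was 0.567 ± 0.272 and 2.45 ± 0.192 RPKM (log2 fold change 2.06, SE 0.259, adjusted p = 5.06e-06). Chrna1, the alpha subunit that binds acetylcholine, had 0, 0 and 1.26 reads in wildtype and 11.15, 21 and 11 reads in DISC1-Δ3. It did not pass the filter, and in a fit without the filter, which called 15.9% of 18172 genes higher, its adjusted p was 1.42e-05. Chrng, the subunit of the fetal receptor, had at most 4 reads in a library (adjusted p = 0.12 in that fit). Chrne, the subunit of the adult receptor, had at most 2, with 3 in all over wildtype and 1 over DISC1-Δ3. Chrnd made up 0%, 0% and 4.17% of the summed RPKM of the 5 subunit genes in wildtype and 58.1%, 55.8% and 49.6% in DISC1-Δ3, where Chrna1 was at 0.22 ± 0.0794 RPKM.

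Of 12 tested genes of the neuromuscular junction, 5 were called higher (41.7%) and 1 lower (8.33%), beside 20.4% and 19.5% of all tested genes. Their median log2 fold change was 0.08. Besides Chrnb1 these were Colq, Ache, Lrp4 and Sntb1. Colq, the collagen tail that anchors acetylcholinesterase, rose from 0.32, 0.2 and 0.13 RPKM to 1.94, 2.24 and 2.43 RPKM (log2 fold change 3.52, SE 0.280, adjusted p = 1.72e-08). Colq passed the filter through the DISC1-Δ3 libraries alone, so it could be called only higher. Ache, acetylcholinesterase itself, rose from 3.38, 3.68 and 3.81 RPKM to 7.08, 7.07 and 7.44 RPKM (log2 fold change 0.88, SE 0.109, adjusted p = 3.94e-06). For both genes every DISC1-Δ3 library was above every wildtype library, as for 35.9% of all tested genes. Both calls held under every other filter, scaling, tool and left-out library. Lrp4, the agrin receptor, rose by 0.20 (adjusted p = 0.00462), and Sntb1, a syntrophin, rose by 0.64 (adjusted p = 0.0205), a call lost without any of 3 single libraries. Rapsn, which clusters the receptor, was lower by 0.43 on the log2 scale (adjusted p = 0.0248), with overlapping RPKM between the groups and no call under DESeq2 or with library totals. Musk, the receptor kinase of the junction, was at 0.06 and 0.09 RPKM and not tested.

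**Figure D2:**
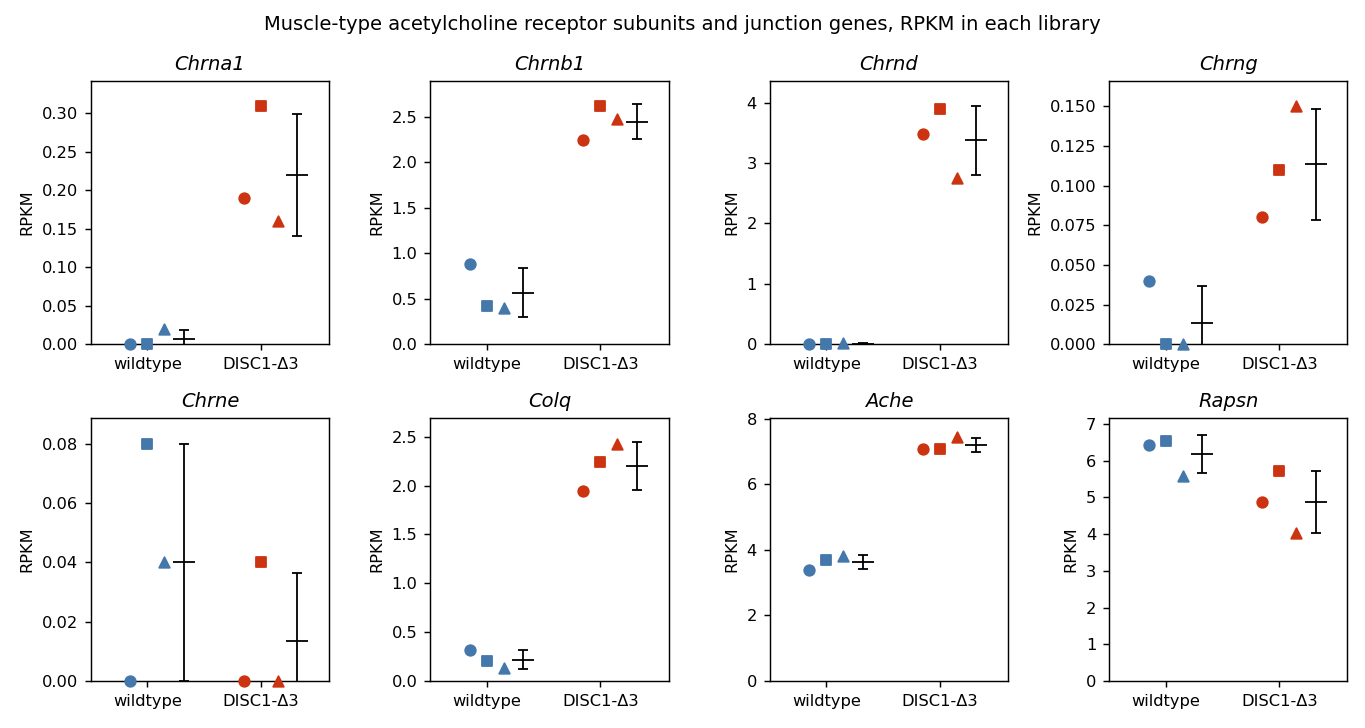
Level in RPKM (y axis, linear from 0, a scale of its own per gene) of the 5 muscle-type receptor subunit genes, Colq, Ache and Rapsn in the wildtype (blue) and DISC1-Δ3 (red) libraries; symbols mark replicates 1, 2 and 3 and black bars the mean ± SD. Chrnb1, Chrnd, Colq and Ache separate cleanly, Chrna1 and Chrng do so at under 0.32 RPKM, and Chrne and Rapsn overlap.

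Genes of the sarcomere, in which Mybpc1 works, did not move as a block. Of 56 listed genes, 21 passed the filter, 5 were called higher (23.8%, beside 20.4% of all genes) and 2 lower, and 18 had at most 3 reads, rounded to whole reads, in every library, Myh1, Myh4, Actc1 and Myl1 among them. Titin (Ttn) was at 0.01 and 0.00667 RPKM and nebulin (Neb) at 0.0267 and 0.0533 RPKM. Tnnt1, the troponin T of slow fibres, was the 1 gene past a log2 fold change of 1, from 1.21, 0.93 and 0.88 RPKM to 4.16, 5.07 and 5.14 RPKM (log2 fold change 1.97, SE 0.225, adjusted p = 1.58e-06). Tpm1, Obsl1, Des and Myl4 rose by 0.43 to 0.62, of which Myl4 (adjusted p = 0.0408) was lost in every fit that left out a library. Des lost the call without wildtype replicate 1. Tpm3 was lower by 0.14 and Pygm by 0.23 on the log2 scale. Tpm3 lost the call with library totals, in limma and without wildtype replicate 2 or 3, and Pygm in limma on log2(RPKM + 0.1). Myh7b, a slow-type myosin heavy chain gene under the filter that was named after its values were seen, was at 0.11 ± 0.0557 and 0.58 ± 0.187 RPKM. Its adjusted p was 3.99e-08 in the fit without the filter. That fit called 6 of the 56 sarcomere genes higher, beside 15.9% of all genes.

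Defining markers of skeletal muscle gave no call in the reported fit. Of the 10, 4 were tested and 0 called in edgeR's fit, 0 of the 4 had an unadjusted p under 0.05, DESeq2 and limma on log2(RPKM + 1) called 0, and the 10 markers' summed RPKM was 9.31 to 9.88 in wildtype and 7.00 to 10.15 in DISC1-Δ3, with Myh1 and Myog at 3 reads or fewer everywhere. Tnnt3 gained a call without wildtype replicate 3 (log2 fold change 1.34, adjusted p = 0.0481) and Tnni2 in limma on log2(RPKM + 0.1) (-0.28, adjusted p = 0.0494). Of 6 cardiac markers in the table, 2 were tested and Myl4 was called. Pericyte and smooth muscle markers did move, 10 of 11 tested being called higher. Their summed RPKM was 161.6 to 170 in wildtype and 232.2 to 240.6 in DISC1-Δ3, a ratio of means of 1.42, and single markers had ratios of 1.13 to 2.11. Des belongs to this list too. The part of these cells in the muscle-type changes was not tested. OPC markers had a ratio of summed RPKM of 1.30, with 7 of 10 called higher. In the other marker lists, 8 of 10 oligodendrocyte and 6 of 8 astrocyte markers were called lower, and Gfap among the astrocyte and 3 of 6 endothelium markers were called higher. The shares over all tested genes were 20.4% higher and 19.5% lower.

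**Figure D3:**
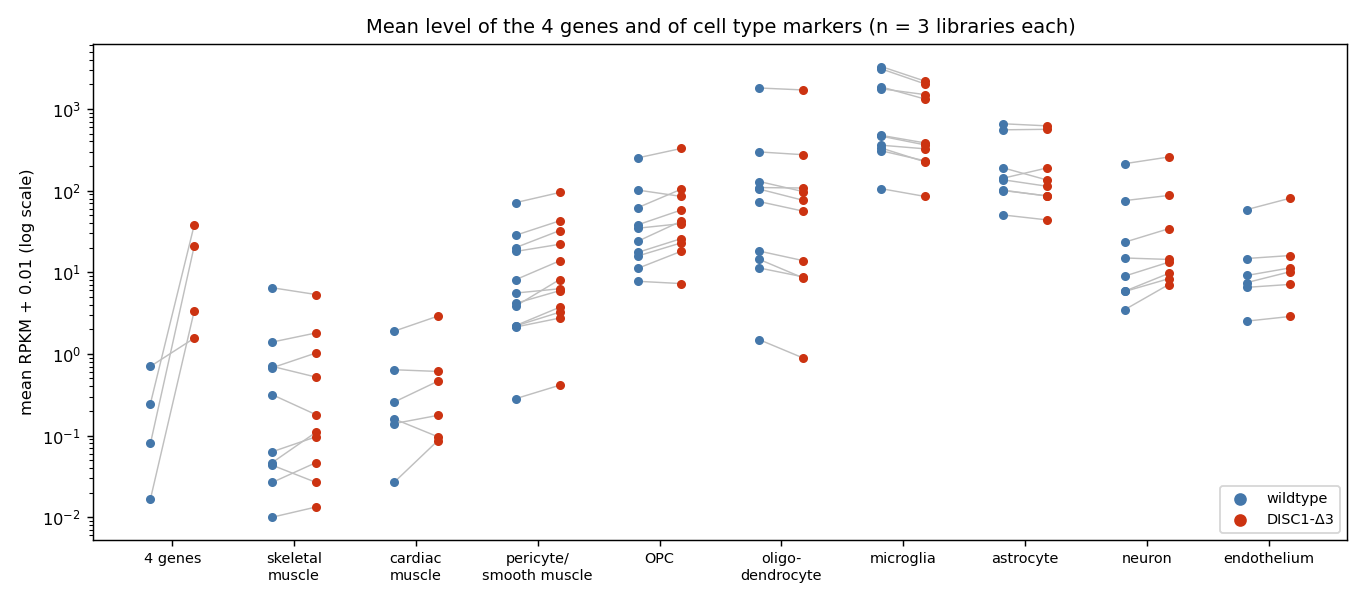
Mean RPKM plus 0.01 on a log axis in wildtype (blue, left) and DISC1-Δ3 (red, right) for the 4 genes and for the markers of 9 cell types, each line joining the means of 1 gene over 3 libraries. Mybpc1, Esyt3 and Chrnd climb from below 0.3 RPKM, while skeletal muscle markers stay below 7 RPKM in both genotypes and microglia markers lie highest and fall.

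Transcription factors and fusion proteins of myogenesis did not rise as a set. Of 7 tested, Tbx1 was called higher (14.3%, beside 20.4% of all tested genes), from 1.22 ± 0.179 to 3.78 ± 0.141 RPKM (log2 fold change 1.52, SE 0.178, adjusted p = 2.05e-06). Mef2a, Mef2c and Mef2d were called lower (42.9%, beside 19.5%), by 0.70, 0.55 and 0.17 on the log2 scale. The Mef2d call was lost with library totals and in limma. The median log2 fold change of the 7 was -0.17. All 10 microglia markers were called lower, with a ratio of summed RPKM of 0.716, and microglia also use Mef2 factors, but their part was not tested. Myod1 had at most 6 reads and Myog at most 3 in any library, and Myf5 and Myf6 had no entry in the data. Mymx, a muscle fusion protein named after its values were seen, had 0 reads in each wildtype library and 5, 3 and 5 in DISC1-Δ3. Its adjusted p was 0.00929 in the fit without the filter. That fit called 2 of 19 genes of this list higher, beside 15.9% of all genes.

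Genes that work beside Casq2 and Esyt3 were close to the background. Of 18 tested genes of reticulum calcium handling, 5 were called higher (27.8%) and 3 lower (16.7%), beside 20.4% and 19.5% of all tested genes. The inositol trisphosphate receptors split, with Itpr1 up by 0.72 (adjusted p = 6.89e-05), Itpr2 down by 0.34 (adjusted p = 2.63e-05) and Itpr3 down by 0.69 (adjusted p = 6.63e-06). The junctophilins Jph3 and Jph4 rose by 0.26 and 0.34 and the calcium channel subunits Cacna1c and Cacnb1 by 0.37 and 0.28, while Asph was lower by 0.25. Jph3 and Cacnb1 lost the call in 3 and 2 of the 6 fits that left out a library, and Cacna1c and Asph lost it in limma. The ryanodine receptors Ryr1 and Ryr2, the release channels that calsequestrin serves, were at 0.173 and 0.13 RPKM in wildtype and at 0.153 and 0.167 RPKM in DISC1-Δ3. Ryr3, named after its values were seen, was at 0.0333 and 0.09 RPKM. Its adjusted p was 0.00505 in the fit without the filter. That fit called 6 of 29 genes of calcium handling higher, beside 15.9% of all genes. Of 21 tested proteins of contacts between the endoplasmic reticulum and the plasma membrane, Vapb, Pitpnm2 and Pitpnm3 were called higher (14.3%) and Esyt1, Gramd1a, Stim1, Orai1 and Orai2 lower (23.8%). The largest of these 8 changes was 0.54 on the log2 scale, and with library totals as the only scaling the split was 6 higher and 1 lower. Of the 8 calls, Pitpnm2 alone held in every alternative filter, scaling, tool and left-out library, and DESeq2 did not call Gramd1a or Orai2.

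**Figure D4:**
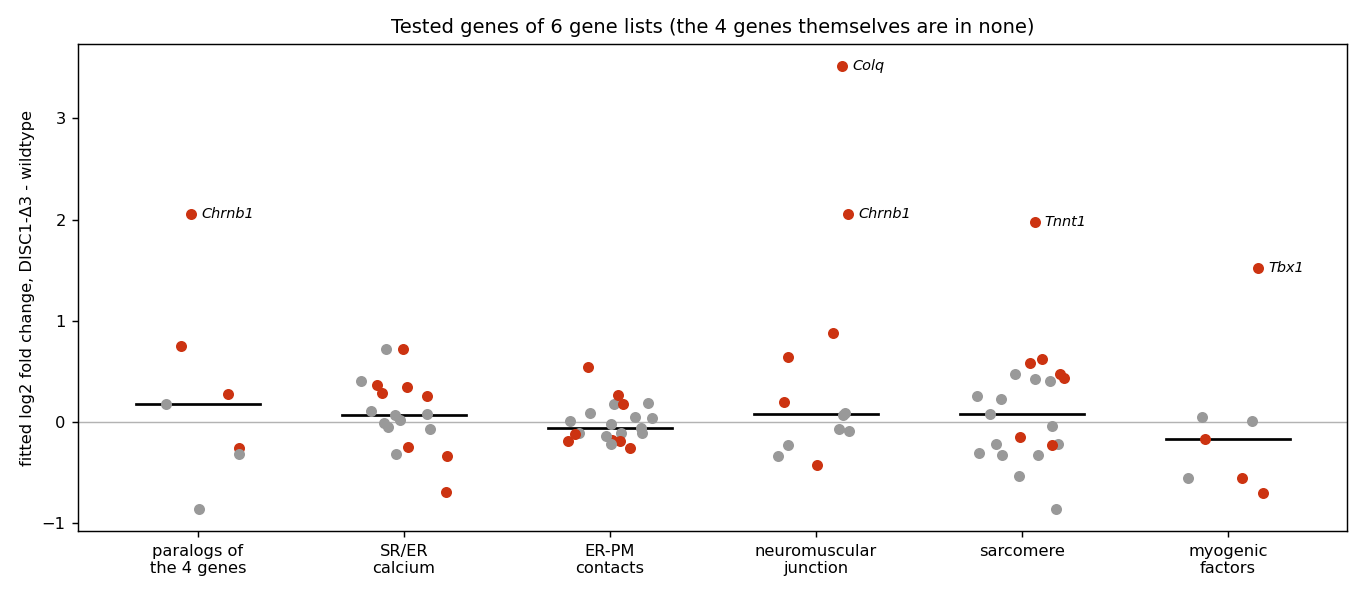
Fitted log2 fold change, DISC1-Δ3 minus wildtype (y axis), of every tested gene in 6 gene lists (x axis); red points passed the test, grey points did not, black lines are list medians and horizontal jitter has no meaning. The medians lie between -0.17 and 0.18, and only Colq, Chrnb1 (in both lists that hold it), Tnnt1 and Tbx1 lie past 1.

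Neighbours on the chromosome were taken as the 5 protein-coding genes on each side, whatever their values. Of the 39 reported here, 29 were tested, 6 were called higher (20.7%), near the 20.4% of all tested genes, and 3 lower (10.3%), beside 19.5% of all tested genes. Past a log2 fold change of 1 the count was 4 of 29 (13.8%), beside 2.76% of all tested genes. Foxl2 and Akp3 among them, like Slc22a15 among the 6, passed the filter through the DISC1-Δ3 libraries alone. Such genes could be called only higher. Those 4 were Foxl2, Akp3, Ecel1 and Prss56. None lay beside Mybpc1, whose neighbours had 0 genes called higher and Gnptab called lower, a call lost with library totals, in limma and in 4 of the 6 fits that left out a library.

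The 3 genes directly before Chrnd on chromosome 1 all rose. Akp3, an intestinal-type alkaline phosphatase, had 0 reads in each wildtype library and 167, 164 and 209 reads in DISC1-Δ3, at least 56.3-fold higher when wildtype is set to 3 reads per library (adjusted p = 4.72e-11). Ecel1, a membrane metalloprotease-like protein, rose from 0.83, 0.82 and 0.65 RPKM to 3.47, 2.52 and 2.98 RPKM (log2 fold change 1.92, SE 0.183, adjusted p = 1.73e-07). Prss56, a serine protease, rose from 2.67, 2.6 and 3.24 RPKM to 215.16, 204.22 and 191.62 RPKM (log2 fold change 6.08, SE 0.080, adjusted p = 8.73e-20). Every DISC1-Δ3 library was above every wildtype library for all 3, as for 35.9% of all tested genes. On the other side Chrng was near 0, and Eif4e2, Efhd1, Gigyf2 and Kcnj13 had log2 fold changes of -0.37 to 0.15, none of which passed the test.

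Prss56 ends 2.19 kb before Chrnd starts, on the same strand. Chrnd reads amounted to 2.25%, 2.64% and 1.99% of Prss56 reads in the DISC1-Δ3 libraries (exact 95% intervals 1.89 to 2.65%, 2.26 to 3.06% and 1.66 to 2.38%). In wildtype they were 0 of 74, 0 of 87 and 1 of 107, with intervals reaching 5.11%, 4.33% and 5.32%. Library by library these were too wide to tell the shares from those in DISC1-Δ3. Summed over libraries, there was 1 Chrnd read beside 268 Prss56 reads in wildtype, and 442 beside 19210 in DISC1-Δ3. Whether transcripts of Prss56 contribute to the reads counted for Chrnd was not tested. Chrng, which starts 5.74 kb after Chrnd on the same strand, had 2, 3 and 4 reads in DISC1-Δ3. The start regions of Akp3 (chr1:87124704-87125003, plus strand) and Prss56 (chr1:87183064-87183363, plus strand) are shown because each held 2 TCF/LEF cores, the sequence read by the transcription factors of Wnt signaling, here in capitals. Both were chosen after their values were seen.
Akp3: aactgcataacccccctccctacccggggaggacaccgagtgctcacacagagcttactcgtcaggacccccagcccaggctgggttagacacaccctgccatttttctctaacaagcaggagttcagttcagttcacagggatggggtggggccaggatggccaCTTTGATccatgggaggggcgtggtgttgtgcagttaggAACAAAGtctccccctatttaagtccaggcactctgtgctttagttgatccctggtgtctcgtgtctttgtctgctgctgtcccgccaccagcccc
Prss56: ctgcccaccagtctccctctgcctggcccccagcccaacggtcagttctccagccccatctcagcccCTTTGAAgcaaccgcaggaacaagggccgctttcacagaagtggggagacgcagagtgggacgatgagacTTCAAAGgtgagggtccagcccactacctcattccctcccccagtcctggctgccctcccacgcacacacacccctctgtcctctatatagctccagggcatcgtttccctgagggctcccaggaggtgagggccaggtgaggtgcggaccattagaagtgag
In Akp3 the cores lay 85 and 46 bases before the start and in Prss56 183 and 113 bases before it. The Prss56 start used is not the outermost. That gene's bounds begin at chr1:87183102, inside the window, and both of its cores lie within them. Of all 32851 windows, 1.94% held 2 or more. Among the 36 neighbours with a window 3 held at least 1 (Akp3, Prss56 and Cep70), a smaller share than the 16.9% of all windows. Each of these 3 held 2. Cep70 was not called (log2 fold change -0.17, adjusted p = 0.552). A match is a run of letters and was not tested for binding. Ecel1, which also rose, held none.

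**Figure D5:**
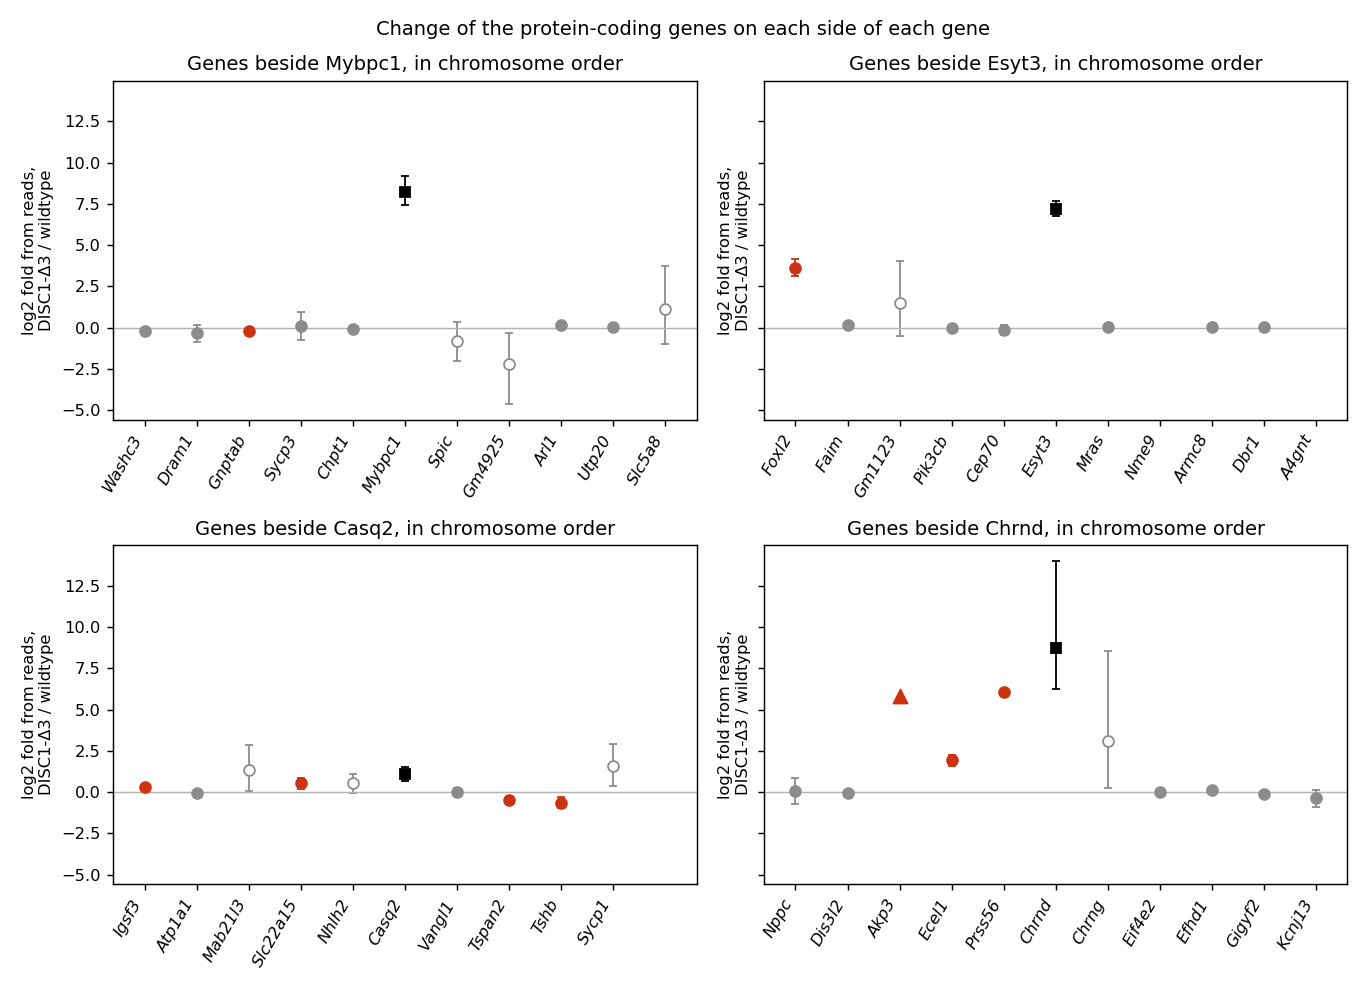
Log2 of the ratio of depth-scaled reads, DISC1-Δ3 over wildtype (y axis), for each of the 4 genes (black squares) and the protein-coding genes on each side in chromosome order (x axis), with exact 95% intervals for counting error. Red points passed the test, grey points did not, open points were not tested, the triangle is a lower bound (Akp3), and genes with at most 3 reads in every library are not drawn; Akp3, Ecel1 and Prss56 before Chrnd stand out, and the tested genes beside Mybpc1 lie near 0.

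Beside Esyt3 and Casq2 the adjacent genes that were tested gave no call. Foxl2, a forkhead transcription factor, lies 352 kb from Esyt3 and rose from 0.49, 0.28 and 0.26 RPKM to 3.69, 5.03 and 4.29 RPKM (log2 fold change 3.60, SE 0.228, adjusted p = 8.49e-10). Mras, next to Esyt3, and Vangl1, next to Casq2, had log2 fold changes of 0.07 (adjusted p = 0.227) and -0.002 (adjusted p = 0.994). Igsf3 and Slc22a15 on the other side of Casq2 rose by 0.30 and 0.52, calls lost under DESeq2 and in other alternatives, and Tspan2 fell by 0.49 (adjusted p = 3.41e-05). Tshb was lower by 0.63 (adjusted p = 0.0498), with overlapping RPKM between the groups and no call under DESeq2, limma or library totals.

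The genes whose profile over the 6 libraries was most like each of the 4 were listed by root-mean-square distance of centred log2 CPM (counts scaled to library size, with a prior count of 2). This mostly picks genes with a difference of like size on that scale, where the prior count shrinks the ratios of genes with few wildtype reads. Fitted log2 fold changes could differ more, being 8.26 for Chrnd and 6.08 for Prss56. For Mybpc1 they were Pla2g2f (distance 0.481), Hbb-b1 (0.532) and Wif1 (0.534). For Esyt3 they were Pla2g2f (0.217), Hbb-b2 (0.309) and Akp3 (0.337). For Chrnd they were Prss56 (0.156), Agmat (0.279) and Wnt16 (0.304). Prss56 is also its neighbour on the chromosome, but the distances use the values for which Chrnd was picked. For Casq2 they were Flvcr2 (0.062), Lrrtm1 (0.091) and Shroom3 (0.102). The distances were widest for Mybpc1, the gene with the most uneven level among the DISC1-Δ3 libraries.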

How the data were processed

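The authors sequenced oligo(dT)-selected RNA as single-end reads of 50 bases on the BGISEQ-500 platform and deposited 1 table with, per gene and library, an expected count (90.2% of values above 0 are whole) and an RPKM made from it by transcript length and library total. The submitters' processing notes name Bowtie2 2.2.5 and mm10, the paper names DESeq2, and the counter and annotation are not given in the sources used here. Another 4 columns, averages over groups, were not used.

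Expected counts were rounded and tested with edgeR 4.0.16 (R 4.3.3; quasi-likelihood test, TMM scaling, genotype as the only term) over the 13792 of 18211 genes with at least 0.5 RPKM in at least 3 libraries. P-values are two-sided with Benjamini-Hochberg adjustment over all tested genes and a threshold of 0.05. The fits were tested on simulated data. Alternatives were other filters and scalings, DESeq2 1.42.0, limma 3.58.1 on log2 RPKM, a replicate block and leaving out each library. Depth was 13716619 to 16417219 counts per library. Nothing says that libraries came from separate mice, so p-values measure only the spread between these libraries. The 4 genes, the gene lists (family members, neuromuscular junction, sarcomere, myogenic factors, calcium handling, membrane contacts, cell type markers) and the rules were chosen with earlier results of these data known. Genes named were the list genes passing the test, all family members, neighbours and the 3 most alike genes. 1 neighbouring gene is not reported here. Ttn, Neb, Musk, Ryr1, Ryr2, Ryr3, Myh7b and Mymx were named after their values were seen. Locations and promoter windows came from RefSeq tables of GRCm38.p6, matched by gene ID for 18085 genes.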

Additional observations from a re-analysis of the deposited data

How the results depend on the processing

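No called gene changed sign in any alternative, while 36 genes without a call did so in 98 gene-by-alternative results, Cep70, Vangl1 and Tnnt3 among them, 0 of which passed the test there. Over 177 named genes, 2448 such results stayed on their side of the threshold, 131 lost the call, 47 gained one and 12 moved in size alone. The fitted log2 fold changes ranged from 4.32 to 8.92 for Mybpc1, 4.99 to 7.33 for Esyt3, 2.11 to 10.16 for Chrnd and 0.59 to 1.18 for Casq2, the lowest in limma on log2(RPKM + 1), where the added 1 shrinks low genes, and the highest without wildtype replicate 1 for Mybpc1 and without wildtype replicate 3 for the others. Called genes numbered 2807 higher and 2691 lower, 2229 and 2371 under DESeq2, 4126 and 1836 with library totals only (69.2% higher, median log2 fold change 0.09), 3983 and 1774 in limma with a pseudocount of 1, 3965 and 1763 with 0.1, and 381 and 146 past a log2 fold change of 1. Leaving out a library gave 2149 to 2918 higher and 2149 to 3314 lower. Past a log2 fold change of 1, family members had 1 higher and 0 lower, calcium handling 0 and 0, membrane contacts 0 and 0, junction genes 2 and 0, sarcomere genes 1 and 0, myogenic factors 0 lower and neighbours 0 lower. With library totals only, membrane contacts had 6 higher and 1 lower, junction genes 0 lower, sarcomere genes 1 lower and neighbours 1 lower. DESeq2 gave 3 lower for membrane contacts and 0 for junction genes. Both limma fits gave 0 lower for family members, 6 higher and 0 lower for membrane contacts, and 1 lower for sarcomere genes and for neighbours. Myogenic factors had 2 higher without a filter and with filterByExpr. Leaving out 1 library gave 1 to 2 lower family members, 3 to 6 higher calcium genes, 1 to 3 higher and 1 to 5 lower membrane contact genes, 0 to 2 lower junction genes, 3 to 5 higher and 1 to 3 lower sarcomere genes, and 1 to 3 lower neighbours. The fewest came without wildtype replicate 3 or DISC1-Δ3 replicate 2 for higher calcium genes (3), without wildtype replicate 3 for membrane contacts (1 higher, 1 lower), without wildtype replicate 1 or 2 for lower junction genes (0), without wildtype replicate 1 for higher sarcomere genes (3), without wildtype replicate 2 for lower sarcomere genes (1), and without wildtype replicate 1 or DISC1-Δ3 replicate 1 or 2 for lower neighbours (1). The cause of these changes was not tested. Same-numbered libraries shared only a number, with correlations of their deviations of -0.029 to 0.044, and a replicate block gave 2774 higher and 2655 lower. Depth limits Chrnd, Chrna1 and Akp3, whose wildtype libraries held 0 or 1 reads, rounded to whole reads. The ratio of Akp3 has a lower bound only. The intervals of Chrnd (74.52 to 16522) and Chrna1 (6.909 to 1641) are wide.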
